A study of Rattus norvegicus with 10 samples.

Results

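The nuclear genes of respiratory complexes II to V were examined in the choroid plexus, the secretory epithelial tissue of the brain ventricles, of rats fed a high fat diet (HFD) or a control diet. They were the genes whose symbol begins with SDH, UQCR, COX or ATP5, together with CYC1 and CYCS, among those that the paper's supplementary gene lists name by Ensembl identifier. This gave 46 of the 32883 genes listed in each deposited file: 5 of complex II, 9 of complex III, 14 of complex IV, 17 of complex V, and cytochrome c (CYCS). Names came from the abundant end of the list of expressed genes for 45 members, so that genes of low abundance with such symbols were not analysed here, and from the list of differentially expressed genes alone for UQCR10. That second list held 7 members (SDHB, UQCRB, UQCR10, UQCRC1, ATP5MC1, ATP5MC3 and ATP5PF) and was drawn up on these same rats, so their direction is not independent evidence.

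All 10 animals were female Wistar rats aged 27 weeks, and each gave 1 library that was not pooled. The 5 control rats were fed a nutrient source-matched diet with 10% of its energy from fat, and the 5 HFD-fed rats a diet with 60%, in both cases for 21 weeks from an age of 6 weeks. The study chose its animals by body weight, light ones on the control diet and heavy ones on the HFD, so that diet and weight cannot be told apart. The lateral and 4th choroid plexus made up 1 sample of each rat.

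As background, the respiratory chain of the mitochondrial inner membrane passes electrons to oxygen and pumps protons, and the ATP synthase uses the returning protons to make ATP. Complex II (succinate dehydrogenase) feeds electrons from succinate into ubiquinone, complex III (cytochrome bc1 complex) passes them to cytochrome c, complex IV (cytochrome c oxidase) delivers them to oxygen, and complex V is the ATP synthase. All subunits of complex II are nuclear, whereas complexes III to V also hold subunits made from mitochondrial DNA. The choroid plexus epithelium is rich in mitochondria and secretes cerebrospinal fluid by ion transport that consumes ATP.

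The level of a gene is given as rescaled TPM, that is TPM (a share of transcripts, per transcript length) over a factor for each rat, which is the median across genes of its ratio to the average rat. The read depth of the libraries is unknown, since the files hold no counts. The factor was 0.747 in control rat 1 and 0.944 to 1.13 in the other 9 rats. Control rat 1 stood apart in other ways too: 1842 genes differed more than 2-fold between it and the median of the remaining rats, against 171 to 235 for any other rat, and its mean effective transcript length, weighted by abundance, was 789 bases against 874 to 968. Where leaving it out moved a log2 fold change below by over 1.5 times, that value is given too. Of the 12 genes chosen as markers of choroid plexus epithelium, 12 were named and detected, with summed rescaled TPM of 330675 to 545645 in control rats and 301871 to 418585 in HFD-fed rats, most of it transthyretin (TTR). None of these 12 was at 0. Of the markers of other cell types, PLVAP, RGS5, DCN, CD74, LYZ2, HBB and RSPH1 could be named, and of 7 markers of neurons and glia 0 could be.

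To show what lies before these genes, the members were matched to a table of RefSeq promoters on the assembly GRCr8, which is not the build of the files (Rnor_6.0), and 40 of 46 matched. No entry was found for CYC1, UQCRB, UQCR11, COX6A1, COX6C and ATP5PD. In the 250 bases before the start, short motifs known from promoters of respiratory genes were searched on both strands: GCGCATGC for NRF1, CCGGAAG for GABP (also called NRF-2), AAGATGGC for YY1 and AAGGTCA for ERR. The NRF1 letters were present before 7 members (17.5%) against 2.20% of all 33469 promoters, and the GABP letters before 13 (32.5%) against 7.27%. The ERR letters stood before 6 (15.0%) against 3.99%, and the YY1 letters before 2 (5.0%) against 1.63%. The median GC content of these bases was 54.6% in the members and 51.2% in all promoters. The shares among expressed or abundant genes are not given, so the excess cannot be called particular to respiratory genes. A match is a description of the letters and not a shown binding site. The GABP and YY1 letters can overlap by AAG, and the NRF1 letters can overlap their own reverse complement.

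The 5 stretches printed here were chosen because the results turn on their genes: SDHB and UQCRQ had the smallest p of complexes II and III, and ATP5MC1, ATP5MC2 and ATP5MC3 encode the same c subunit of complex V. Each is the 250 bases before the start, 5′ to 3′ on the gene's strand, in lower case with motif letters in capitals. SDHB lies at chr5:158547684-158547933 on the plus strand, UQCRQ at chr10:38089979-38090228 on the minus strand, ATP5MC1 at chr10:81523346-81523595 on the minus strand, ATP5MC2 at chr7:135678219-135678468 on the minus strand and ATP5MC3 at chr3:79220665-79220914 on the minus strand of GRCr8. Capitals mark NRF1 and then GABP letters in SDHB, ERR and then GABP letters in UQCRQ, NRF1 letters on both strands in ATP5MC2 and ERR letters on the opposite strand in ATP5MC3. ATP5MC1 held 0 of the 4 motifs.
SDHB: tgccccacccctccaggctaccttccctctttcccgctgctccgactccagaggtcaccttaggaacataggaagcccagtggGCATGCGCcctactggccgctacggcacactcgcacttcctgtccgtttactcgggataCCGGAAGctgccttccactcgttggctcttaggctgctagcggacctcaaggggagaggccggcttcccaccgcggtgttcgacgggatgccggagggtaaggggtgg
UQCRQ: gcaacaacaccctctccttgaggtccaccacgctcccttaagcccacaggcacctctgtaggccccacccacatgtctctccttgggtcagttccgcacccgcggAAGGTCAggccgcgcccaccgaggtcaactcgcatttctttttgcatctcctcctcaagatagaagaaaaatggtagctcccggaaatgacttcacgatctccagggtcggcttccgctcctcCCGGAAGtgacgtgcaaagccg
ATP5MC1: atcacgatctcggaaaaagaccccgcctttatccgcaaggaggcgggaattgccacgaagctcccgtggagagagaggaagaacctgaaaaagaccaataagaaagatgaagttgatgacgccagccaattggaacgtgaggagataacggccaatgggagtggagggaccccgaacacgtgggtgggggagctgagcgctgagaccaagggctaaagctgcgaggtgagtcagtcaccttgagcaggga
ATP5MC2: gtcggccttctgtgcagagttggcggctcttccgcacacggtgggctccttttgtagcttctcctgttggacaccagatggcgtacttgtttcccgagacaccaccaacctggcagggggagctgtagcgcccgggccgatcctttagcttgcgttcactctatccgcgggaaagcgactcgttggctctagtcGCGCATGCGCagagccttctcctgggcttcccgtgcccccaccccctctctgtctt
ATP5MC3: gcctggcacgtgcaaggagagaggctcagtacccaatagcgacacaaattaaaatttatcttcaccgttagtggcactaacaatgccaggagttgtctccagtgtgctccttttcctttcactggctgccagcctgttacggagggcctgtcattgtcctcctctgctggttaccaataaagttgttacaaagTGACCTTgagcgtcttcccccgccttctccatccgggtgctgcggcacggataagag

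The members were abundant, with large differences among them. On the rescaled TPM scale, which is per transcript length, COX8A was the highest at 3419 ± 146 (SD, n = 5) in control rats and 3169.6 ± 315 (SD, n = 5) in HFD-fed rats. The highest members of the other complexes in control rats were ATP5ME in complex V (2450.4 ± 727), UQCR11 in complex III (922 ± 151) and SDHC in complex II (422 ± 33.2, SD, n = 5 each). The summed level of complex II came to 7.16% ± 0.95 of that of complex V in control rats and 7.68% ± 0.20 in HFD-fed rats (SD, n = 5 each), that of complex III to 19.0% ± 1.35 and 19.0% ± 0.31, and that of complex IV to 91.7% ± 3.96 and 94.3% ± 2.66. Complexes IV and V thus took most of the members' transcripts in both diets. The lowest member was UQCR10, a small complex III subunit, at 4.64 ± 2.31 and 3.35 ± 1.48 (SD, n = 5 each), far under every other complex III gene. RSEM can assign the reads of a gene to a near copy, so that this level is uncertain.

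**Figure D1:**
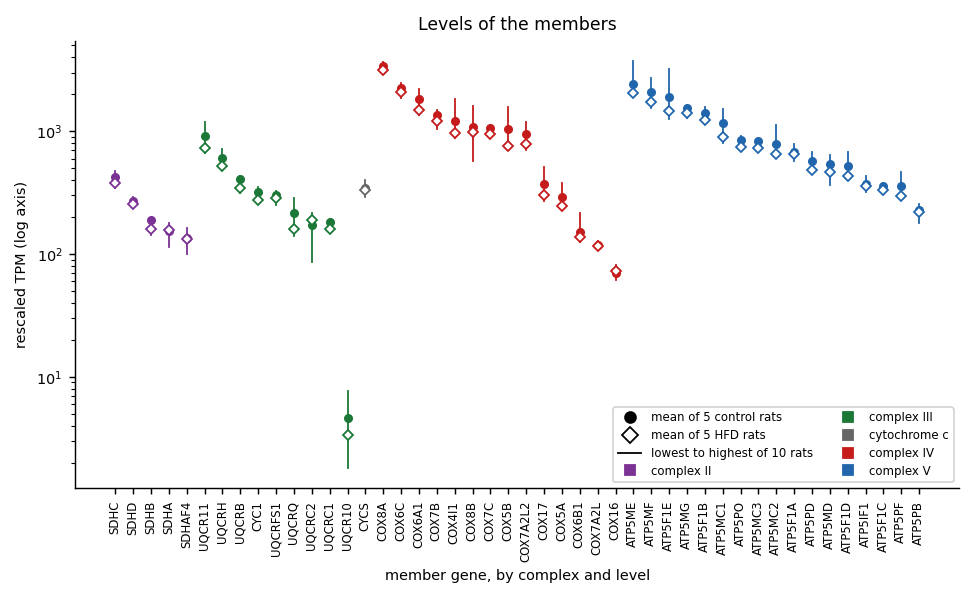
Levels of the 46 members in rescaled TPM on a log axis, by complex. Filled points are means of 5 control rats, open diamonds means of 5 HFD-fed rats and vertical lines run from the lowest to the highest of 10 rats; COX8A is at the top and UQCR10 alone lies under 10.

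Most members had a slightly lower level in HFD-fed rats. Of the 46, 43 had a lower and 3 a higher fitted level, with a median log2 fold change of -0.20 (HFD minus control, limma on log2(rescaled TPM + 0.1)), and 20 had an unadjusted p under 0.05, all of them lower. These 20 were SDHB in complex II, CYC1, UQCR11, UQCRB, UQCRC1, UQCRH and UQCRQ in complex III, COX5A, COX5B, COX6A1, COX7A2L2 and COX17 in complex IV, and ATP5F1B, ATP5F1D, ATP5MC1, ATP5MC3, ATP5MF, ATP5PD, ATP5PF and ATP5PO in complex V. Of all 12198 genes tested, 4.83% were lower and 3.76% higher at this threshold, and of the 2052 genes averaging 45 rescaled TPM or more, the range of nearly all members, 12.4% were lower. Their medians were 0.01 and -0.08. After Benjamini-Hochberg adjustment over all genes tested, 0 members and 0% of genes had an adjusted p under 0.05, and the adjusted p of the members ran from 0.542 to 0.923 (limma). The differences are therefore a description at an unadjusted threshold. In tissue RNA, fewer cells of a type and less RNA per cell cannot be told apart.

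The count depended on scaling and on single rats. With TPM as deposited, without the factor for each rat, 9 members had an unadjusted p under 0.05 (UQCR11, UQCRQ, COX5A, COX5B, COX6A1, COX17, ATP5F1D, ATP5MC1 and ATP5MF), where 1.26% of all genes were lower at this threshold, and 34 members had a lower fitted level. That scaling moved the median of all genes from 0.01 to 0.12 and that of the members from -0.20 to -0.10. A change of factor shifts all genes by about the same amount. By arithmetic, the members therefore stayed at -0.21 on the log2 scale relative to the median of all genes. Relative to the median of genes averaging 45 or more, they were at -0.12 with rescaled TPM and at -0.09 without control rat 1. Without control rat 1 the count was 20 again, with a median of -0.14 against 0.00 over all genes, of which 6.22% were lower at this threshold. In that fit 16.2% of genes averaging 45 or more were lower. Leaving out HFD rat 1 or HFD rat 4 gave 13 members, HFD rat 5 gave 11 and HFD rat 2 gave 28. The shares of all genes in these fits are not given, so these counts are not set against a background. The 5 members UQCR11, UQCRQ, COX5B, COX6A1 and ATP5MC1 had an unadjusted p under 0.05 in each of 6 fits: rescaled TPM, TPM as deposited, either of them without control rat 1, median ratios over abundant genes, and mean effective length as a covariate. The last gave 18 members with a median of -0.13, against 3.98% of all genes, and median ratios over abundant genes gave 14, against 1.91%. Mean effective length moved with the scaling factor, from 789 bases at 0.747 (control rat 1) to 968 at 1.13 (HFD rat 5). The fit with that covariate is therefore not a check apart from the scaling.

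**Figure D2:**
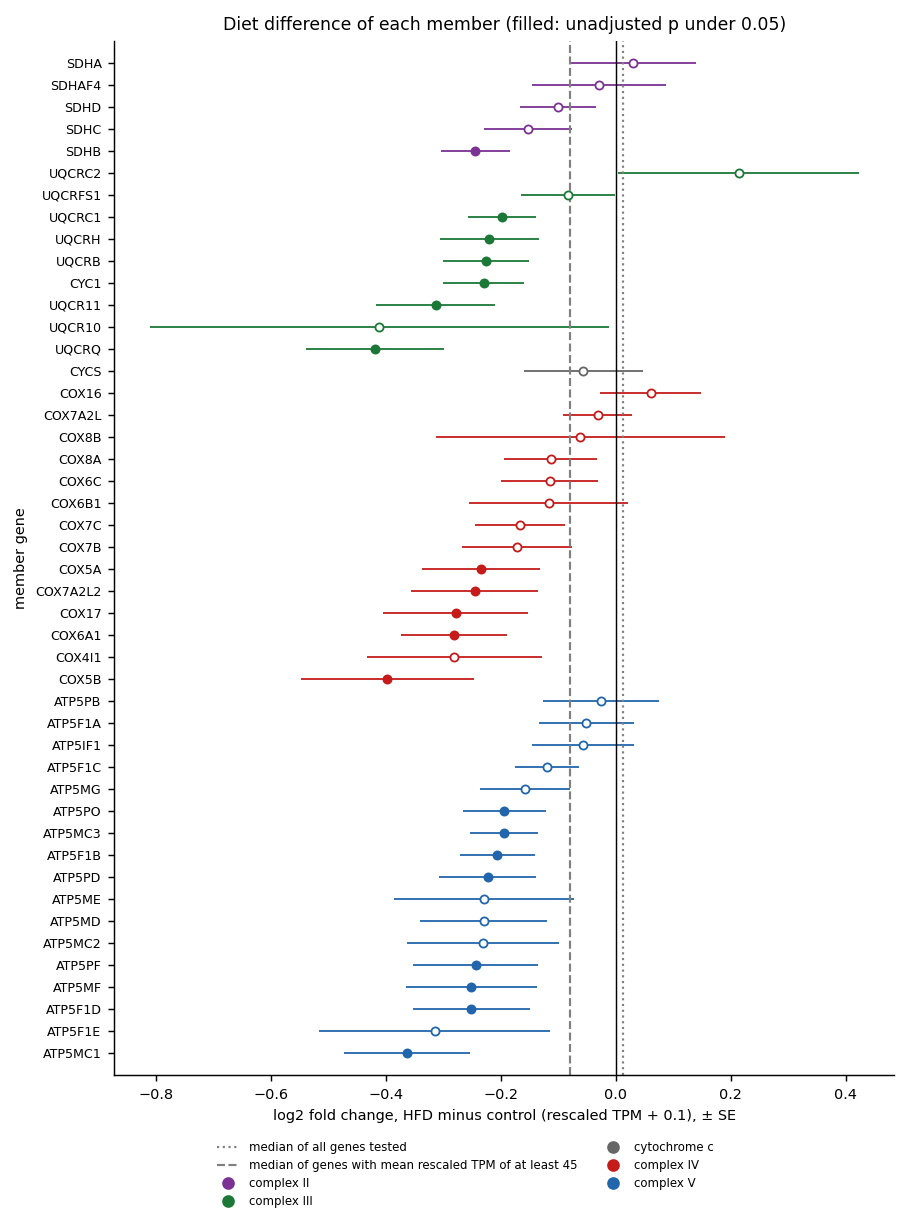
Log2 fold change (HFD minus control) of each member with its standard error, coloured by complex and filled where the unadjusted p was under 0.05. Dashed and dotted lines mark the medians of genes averaging 45 rescaled TPM or more (-0.08) and of all genes (0.01); 43 of 46 points lie below 0 with rescaled TPM, against 34 with TPM as deposited.

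**Figure D3:**
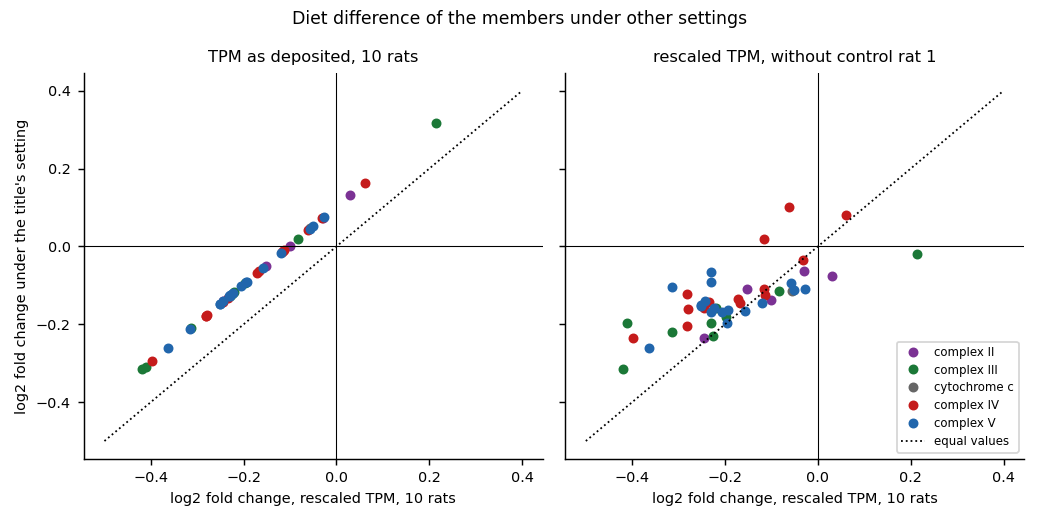
Log2 fold change of each member with rescaled TPM of all 10 rats (x axis) against TPM as deposited (left) and rescaled TPM without control rat 1 (right), coloured by complex. On the left all points are shifted up by about the same amount, while on the right UQCRC2 moves from 0.21 to -0.02 and COX8B from -0.06 to 0.10.

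For 11 members the 5 HFD-fed rats all lay under the lowest control rat (SDHB, UQCR11, UQCRC1, UQCRQ, COX5B, COX6A1, ATP5F1B, ATP5F1D, ATP5MC1, ATP5MC3 and ATP5PD). Such separation fixes the exact two-sided permutation test at the smallest p it can reach with 5 against 5 rats (p = 0.00794). That p therefore adds nothing to the separation. The same separation was seen for 2.02% of all genes tested and for 6.24% of genes averaging 45 or more. With TPM as deposited it held for 4 members (COX5A, COX5B, ATP5F1D and ATP5MF) against 0.335% of genes. COX5B and ATP5F1D were the members separated under both scalings with all 10 rats. Control rat 1 bore on these counts: set against control rats 2 to 5 alone, the HFD-fed rats were all lower for 12 members with rescaled TPM (2.72% of genes) and for 14 with TPM as deposited (1.08% of genes), SDHB, CYC1, UQCRB and UQCRC1 among the latter.

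The rats of 1 diet were not alike. Compared with the median of control rats 2 to 5, HFD rat 5 was lower for 46 of 46 members (median log2 difference -0.23), HFD rat 1 for 44 (-0.18), HFD rats 3 and 4 for 40 each (-0.09 and -0.20), and HFD rat 2 for 20 (0.01). Of the control rats, which partly set that median, control rat 5 was lower for 44 members but by less (-0.05), control rat 3 for 34 (-0.02), control rat 1 for 14, control rat 4 for 9 and control rat 2 for 5. HFD rat 5 had the lowest level of all 10 rats for 24 members. HFD rats 2 and 3, with the smaller differences, also had the shorter mean effective transcript lengths of their diet, 883 and 874 bases against 934 to 968, the lower scaling factors, 0.947 and 0.944 against 1.08 to 1.13, and the higher shares of TTR in all TPM, 36.0% and 38.2% against 32.2% to 33.1% (39.7% in control rat 1). The part of these in the result was not tested beyond the fit with the length as covariate. Control rat 1 had the highest level of all 10 rats for 28 members and the lowest for 4.

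**Figure D4:**
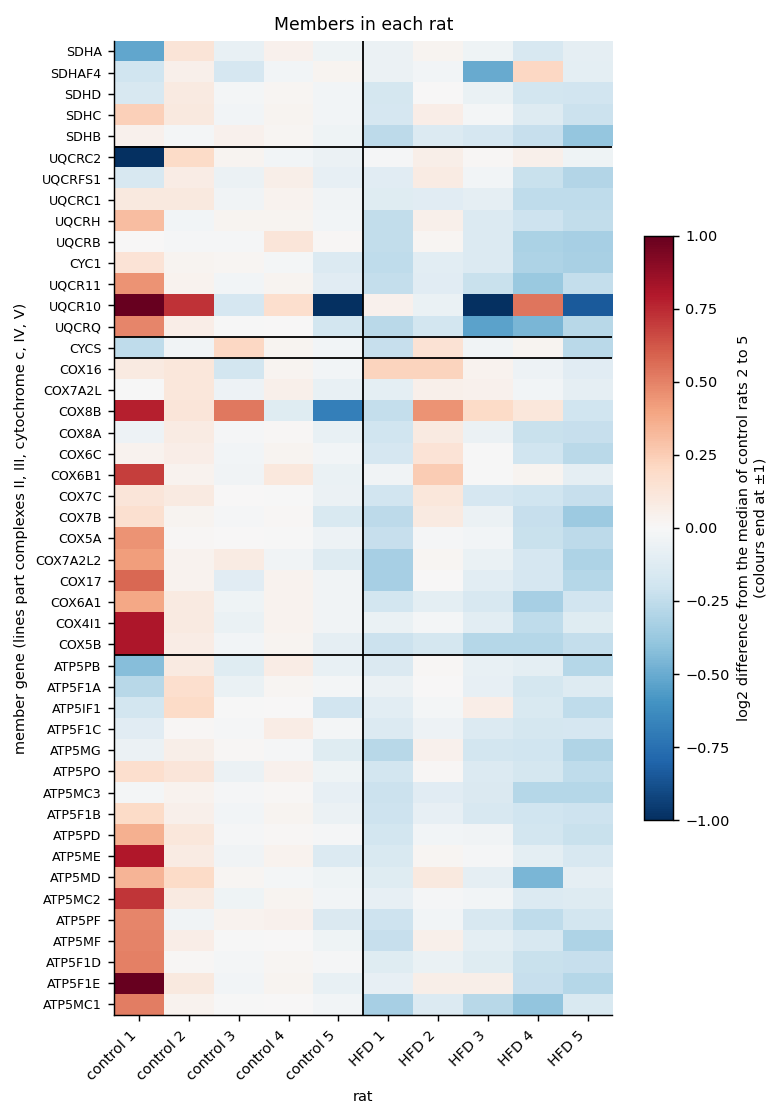
Log2 difference of each member (rows, by complex) in each rat (columns) from the median of control rats 2 to 5, with colours ending at 1 in either direction. Control rat 1 is high for 28 members and low for a few such as UQCRC2, and HFD rat 2 is closer to the control rats than the other HFD-fed rats.

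In complex II, 1 of 5 members, SDHB, was lower in HFD-fed rats with an unadjusted p under 0.05, and the median log2 fold change was -0.10 (0.00 with TPM as deposited, where 0 of 5 passed). Of genes averaging 45 rescaled TPM or more, 12.4% were lower, with a median of -0.08. As a group complex II was thus close to them, at -0.02 relative to their median (-0.05 without control rat 1). SDHB (ENSRNOG00000007967), the iron-sulfur subunit that carries electrons towards ubiquinone, was at 192, 185, 192, 189 and 181 rescaled TPM in control rats 1 to 5 and at 156, 170.0, 166, 159 and 143 in HFD-fed rats 1 to 5. All HFD-fed rats lay under all control rats, with 159 ± 10.5 against 188 ± 5.01 (SD, n = 5 each), 15.6% lower. Its log2 fold change was -0.24 ± 0.06 (SE), the smallest p of all members (unadjusted p = 0.0019, adjusted p = 0.542, limma), and it kept an unadjusted p under 0.05 with each of the 10 rats left out in turn, though not with TPM as deposited (unadjusted p = 0.162, limma).

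SDHA, the flavoprotein that oxidises succinate, was at 114, 178, 155, 168 and 158 in control rats and at 157, 166, 159, 146 and 153 in HFD-fed rats. The diets overlapped, and the log2 fold change of 0.03 ± 0.11 (SE) was -0.08 without control rat 1, its lowest rat. SDHC, a membrane anchor and the most abundant of the complex, was at 476, 431, 396, 411 and 397 in control rats and at 359, 423, 399.6, 369.7 and 348 in HFD-fed rats (-0.15 ± 0.08). For it and for SDHD, the other anchor (-0.10 ± 0.07, or 0.00 with TPM as deposited), 3 of 5 HFD-fed rats lay under the lowest control rat. SDHAF4, an assembly factor of SDHA and the lowest of the complex, was at 122, 145, 125, 138 and 143 against 135, 138, 99.2, 162 and 132, with overlap and a log2 fold change of -0.03 ± 0.12 (-0.06 without control rat 1, 0.07 with TPM as deposited).

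In complex III, 6 of 9 members had an unadjusted p under 0.05, all lower, with a median log2 fold change of -0.23. On the deposited TPM 2 of 9 passed and the median was -0.12. At this threshold 4.83% of all genes and 12.4% of genes averaging 45 or more were lower (1.26% of all genes on the deposited TPM). Relative to the median of genes averaging 45 or more, complex III was at -0.15 (-0.14 without control rat 1). The small subunit UQCRQ (ENSRNOG00000048174) had the largest difference of all members, -0.42 ± 0.12 on the log2 scale (SE, unadjusted p = 0.00534, adjusted p = 0.542, limma), or 25.2% lower. It was at 286, 213, 203, 204 and 179 in control rats and at 169, 179, 140.2, 148 and 168 in HFD-fed rats. The groups did not overlap, but the lowest control rat, at 179.5, and the highest HFD-fed rat, at 179.2, nearly met, and without control rat 1 the log2 fold change was -0.32.

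UQCR11, another small subunit, was at 1186, 886, 852, 883 and 803 in control rats and at 735, 801, 742, 669 and 733 in HFD-fed rats, again without overlap (log2 fold change -0.31 ± 0.10, or -0.22 without control rat 1). Of the 2 core proteins, UQCRC1 was at 191, 191, 175, 183 and 174 against 164, 165, 168, 150.3 and 150.0, a log2 fold change of -0.20 ± 0.06 with no overlap. With TPM as deposited its diets overlapped (-0.09, unadjusted p = 0.318, limma). The other core protein, UQCRC2, was at 86.1, 215, 192, 185 and 181 in control rats and at 187, 196, 190.2, 195 and 183 in HFD-fed rats, so that its log2 fold change of 0.21 ± 0.21 was -0.02 without control rat 1, its lowest rat.

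Among the electron carriers of complex III, CYC1 (cytochrome c1) was at 351, 326, 325, 316 and 291 in control rats and at 269, 298, 291, 258 and 255 in HFD-fed rats. Only HFD rats 2 and 3 reached into the range of the control rats, and the log2 fold change was -0.23 ± 0.07 (SE, unadjusted p = 0.0079, limma). UQCRFS1, the Rieske iron-sulfur protein, was at 275, 323, 294, 319 and 289 against 283, 324, 301, 263 and 250.1, with wide overlap and a log2 fold change of -0.08 ± 0.08 (0.02 with TPM as deposited).

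Of the remaining small subunits, UQCRB was at 400.5, 395, 395, 433 and 402 in control rats and at 337, 403, 362, 319.8 and 317 in HFD-fed rats, and UQCRH (the hinge protein) at 715, 566, 587, 589 and 567 against 486, 596, 524, 500.0 and 487. In both genes HFD rat 2 was inside the control range and the other 4 HFD-fed rats under it. Their log2 fold changes were -0.23 ± 0.08 and -0.22 ± 0.09 (SE). UQCR10 was at 7.61, 6.25, 3.33, 4.20 and 1.82 in control rats and at 3.85, 3.57, 1.82, 5.45 and 2.05 in HFD-fed rats, with the diets overlapping (log2 fold change -0.41 ± 0.40, unadjusted p = 0.326, limma, or -0.20 without control rat 1), and at that level its pseudocount and rounding weigh more than for other members.

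Cytochrome c, which shuttles electrons from complex III to complex IV, was not distinguished between the diets. CYCS was at 294, 342, 404, 357 and 344 in control rats and at 299, 387, 342, 358 and 290.1 in HFD-fed rats. Its log2 fold change was -0.06 ± 0.10 (SE, unadjusted p = 0.594, limma), -0.12 without control rat 1 and 0.05 on the deposited TPM.

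**Figure D5:**
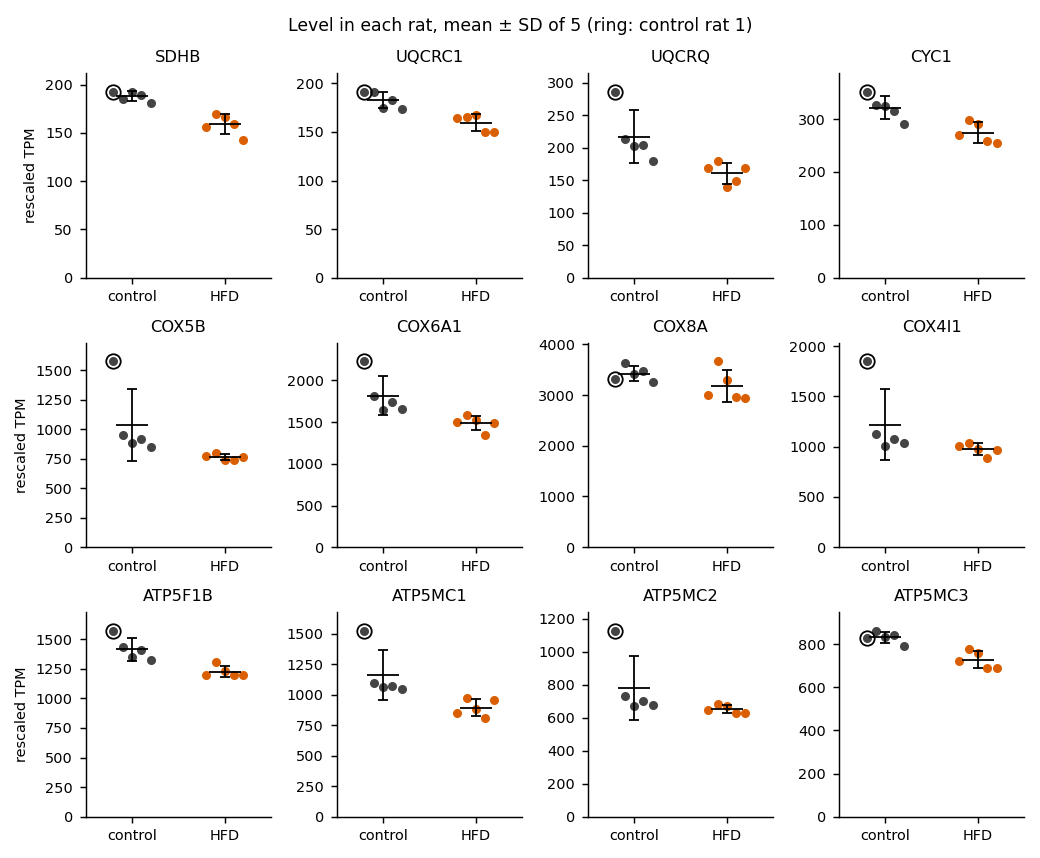
Rescaled TPM of 12 members in each of 5 control and 5 HFD-fed rats, with the mean and SD of each diet and a ring around control rat 1. In SDHB, UQCRC1, UQCRQ, COX5B, COX6A1, ATP5F1B, ATP5MC1 and ATP5MC3 no HFD-fed rat reaches a control rat; control rat 1 is far above the others in COX5B, COX4I1, ATP5MC1 and ATP5MC2.

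In complex IV, 5 of 14 members had an unadjusted p under 0.05, all lower, and the median log2 fold change was -0.17 (-0.07 with TPM as deposited, where 4 passed). Against these stood 4.83% of all genes and 12.4% of genes averaging 45 or more (1.26% of all genes with TPM as deposited). Relative to the median of genes averaging 45 or more, complex IV was at -0.09 (-0.07 without control rat 1). COX5B (ENSRNOG00000016660), a zinc-binding nuclear subunit, was at 1576, 948, 885, 918 and 847 in control rats and at 776, 796, 739, 741 and 765 in HFD-fed rats. No HFD-fed rat reached a control rat, and the HFD-fed rats lay close together (764 ± 24.1, SD, n = 5). The log2 fold change of -0.40 ± 0.15 (SE, unadjusted p = 0.0234, adjusted p = 0.553, limma) was -0.24 without control rat 1, where the unadjusted p was 0.000691 (limma). With TPM as deposited it was -0.29 and the diets were also separate.

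COX6A1, the subunit 6A form outside muscle, was at 2229, 1815, 1649.8, 1745 and 1659 in control rats and at 1497, 1592, 1524, 1349 and 1489.6 in HFD-fed rats. The groups did not overlap and the log2 fold change was -0.28 ± 0.09 (SE), 17.7% lower. COX5A was at 377, 278, 277, 274 and 266 against 234, 273, 270.0, 236 and 229.8, so that HFD rats 2 and 3 overlapped with the control rats (-0.23 ± 0.10, or -0.14 without control rat 1). With TPM as deposited, COX5A no longer overlapped between the diets.

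COX4I1, a large nuclear subunit, was at 1848, 1122, 1011, 1081 and 1031 in control rats and at 1006, 1041, 981, 884 and 969 in HFD-fed rats. Control rat 1 set much of its mean, and the log2 fold change of -0.28 ± 0.15 (SE, unadjusted p = 0.0924, limma) was -0.12 without it. COX17, the copper chaperone of complex IV, was at 512, 352, 318, 351 and 335 against 272, 344, 318, 305 and 281, with a log2 fold change of -0.28 ± 0.13, or -0.16 without control rat 1. COX7A2L2 was at 1189, 908, 942, 869 and 811 against 706, 899, 849, 792 and 718 (-0.25 ± 0.11, or -0.16 without control rat 1), and it failed to pass on the deposited TPM (unadjusted p = 0.0515, limma) or when control rat 1 was omitted (unadjusted p = 0.0773, limma). Copies of a gene can share reads in RSEM, which makes the level of COX7A2L2 uncertain.

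COX8A and COX6C, the 2 most abundant members of complex IV, were among those not distinguished, while COX6A1, next in level, had passed. COX8A was at 3313, 3636, 3413, 3470.1 and 3263 in control rats and at 2995, 3664, 3305, 2952 and 2932 in HFD-fed rats, with HFD rat 2 the highest of all 10 (log2 fold change -0.11 ± 0.08). COX8B, in rodents a muscle form of the same subunit, varied widely within each diet, at 1597, 1013, 1344, 854 and 578 against 790.2, 1269.9, 1061, 1005 and 810.4. Its log2 fold change of -0.06 ± 0.25 was 0.10 without control rat 1. COX6C, COX7B and COX7C had values between -0.17 and -0.12. COX6B1 had -0.12 with control rat 1 (215 against 128 to 143 in the other control rats), but 0.02 without it and 0.03 with the length as covariate. COX7A2L, known for its part in supercomplexes, had -0.03 ± 0.06 (0.07 with TPM as deposited), and COX16, an assembly factor and the lowest of the complex, was at 73.7, 74.9, 61.0, 70.9 and 67.9 against 81.0, 81.1, 71.0, 67.0 and 64.1 (0.06 ± 0.09).

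In complex V all 17 members had a lower fitted level, 8 of them with an unadjusted p under 0.05, and the median log2 fold change was -0.22 (-0.12 with TPM as deposited, where 14 were lower and 3 passed). Of all genes 4.83% were lower at this threshold (1.26% with TPM as deposited), and of genes averaging 45 or more 12.4%. Relative to the median of the latter genes, complex V was at -0.14 (-0.10 without control rat 1). The F1 head, which makes ATP, had 2 of 5 members past that threshold. ATP5F1B (ENSRNOG00000002840), the catalytic beta subunit, was at 1569.6, 1430.5, 1352, 1404 and 1320.5 in control rats and at 1196, 1305, 1235, 1198 and 1193 in HFD-fed rats. The groups did not overlap, and the log2 fold change was -0.21 ± 0.07 (SE, unadjusted p = 0.00975, limma), 13.3% lower. With TPM as deposited ATP5F1B overlapped between the diets (-0.10, unadjusted p = 0.191, limma).

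ATP5F1A, the alpha subunit that alternates with beta in the head, was at 576, 783, 666, 709 and 687 in control rats and at 670.4, 701, 660.3, 619 and 637 in HFD-fed rats. Its diets overlapped, with a log2 fold change of -0.05 ± 0.08 that was -0.11 without control rat 1 and 0.05 with TPM as deposited. ATP5F1D (delta) was at 682, 484, 476, 488 and 479 against 443, 461, 443, 413 and 411, with no overlap under either scaling and a log2 fold change of -0.25 ± 0.10 (-0.15 without control rat 1). ATP5F1C (gamma, the rotor shaft) had -0.12 ± 0.06 and ATP5F1E (epsilon) -0.32 ± 0.20, the latter with 3247 in control rat 1, while control rats 2 to 5 had 1476 to 1660.5, and a log2 fold change of -0.10 without control rat 1.

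The c ring, the rotor in the membrane that protons turn, is built of 1 kind of subunit encoded by 3 genes that differ in their import sequences. ATP5MC1 (ENSRNOG00000007235) was at 1522, 1093, 1062, 1071 and 1044 in control rats and at 848, 969, 879, 809.5 and 958 in HFD-fed rats, the lowest log2 fold change of the complex (-0.36 ± 0.11, SE, unadjusted p = 0.00733, limma). ATP5MC3 was at 827, 861, 835, 844 and 791 against 722, 776, 759.8, 689 and 689 (-0.19 ± 0.06). Both were separate between the diets with rescaled TPM but overlapped with TPM as deposited. There ATP5MC1 had -0.26 (unadjusted p = 0.00384, limma) and ATP5MC3 had -0.09 (unadjusted p = 0.364, limma). ATP5MC2 was at 1126, 733, 669, 699.6 and 676 against 649, 682, 673, 626 and 629, overlapping, and its log2 fold change of -0.23 ± 0.13 was -0.09 without control rat 1.

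Ratios within a rat do not depend on the scaling between rats. ATP5MC1 and ATP5MC3 are on the study's list of differentially expressed genes, drawn up on these same rats, and ATP5MC2 is not. A lower ratio in HFD-fed rats was thus favoured in advance, and the p-values below are a description and not independent evidence. The ratio of ATP5MC1 to ATP5MC2 was 1.35, 1.49, 1.59, 1.53 and 1.55 in control rats and 1.31, 1.42, 1.31, 1.29 and 1.52 in HFD-fed rats. The log2 difference, HFD minus control, was -0.13, which did not pass an exact two-sided permutation test over 252 assignments (p = 0.0635), but did without control rat 1 (-0.17, exact permutation p = 0.0317) or without HFD rat 5 (-0.17, exact permutation p = 0.0317). The ratio of ATP5MC3 to ATP5MC2 was 0.735 in control rat 1, 1.17 to 1.25 in the other control rats and at most 1.14 in HFD-fed rats. With all rats its log2 difference was 0.04 (exact permutation p = 1), and without control rat 1 it was -0.11 (exact permutation p = 0.0079, the smallest possible). That smallest p only restates that control rats 2 to 5 and the HFD-fed rats did not overlap. ATP5MC1 made up 41.7% ± 1.23 of the 3 genes' level in control rats and 39.3% ± 1.76 in HFD-fed rats (SD, n = 5 each).

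The peripheral stalk holds the head in place, and 3 of its 4 genes had an unadjusted p under 0.05. Of genes averaging 45 or more, 12.4% were lower at this threshold, and with TPM as deposited 0 of the 4 passed. ATP5PD (subunit d) was at 678, 574, 527, 534 and 527 in control rats and at 466, 521, 518, 466 and 454 in HFD-fed rats, with no overlap (log2 fold change -0.22 ± 0.08). With TPM as deposited it overlapped (-0.12, unadjusted p = 0.0602, limma). ATP5PO (OSCP, the joint to the head) was at 923, 891, 789, 843 and 797 against 722, 827, 746, 727 and 687 (-0.19 ± 0.07), and ATP5PF (coupling factor 6) at 467, 325, 341, 343 and 302 against 289, 327, 297, 278 and 293 (-0.24 ± 0.11, or -0.14 without control rat 1). In both, HFD rat 2 alone reached the control range. ATP5PB (subunit b) had the lowest level of the complex, at 178, 255, 221, 253 and 228 against 217, 241, 227, 224 and 197, with a log2 fold change of -0.03 ± 0.10 (-0.11 without control rat 1, 0.08 with TPM as deposited).

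Of the other membrane subunits, ATP5MF (subunit f) was at 2695, 1996, 1905, 1915 and 1853 in control rats and at 1630.0, 1977, 1789.7, 1710.4 and 1543 in HFD-fed rats (log2 fold change -0.25 ± 0.11, or -0.15 without control rat 1). ATP5ME (subunit e), the most abundant member of the complex, was at 3734, 2272, 2096, 2197 and 1953 against 1935, 2173, 2125, 2011 and 1918. Its log2 fold change of -0.23 ± 0.16 was -0.07 without control rat 1. ATP5MG (subunit g) and ATP5MD had -0.16 ± 0.08 and -0.23 ± 0.11. ATP5IF1, which stops the synthase from running backwards, was at 333, 432, 377, 379 and 332 against 351, 372, 395, 340.4 and 318, with overlap and a log2 fold change of -0.06 ± 0.09 (-0.09 without control rat 1, 0.05 with TPM as deposited).

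Calls of single members differed in how far they held. With each of the 10 rats left out in turn, 11 of the 20 members kept an unadjusted p under 0.05 (SDHB, CYC1, UQCR11, UQCRB, UQCRC1, UQCRQ, COX5B, COX6A1, ATP5F1B, ATP5MC1 and ATP5MC3). The share of all genes that did so is not given, and these fits all use rescaled TPM. With TPM as deposited and all rats, UQCR11, UQCRQ, COX5B, COX6A1 and ATP5MC1 passed. SDHB, CYC1, UQCRB, UQCRC1, ATP5F1B and ATP5MC3 did not (unadjusted p from 0.135 to 0.364, limma). In the fits with 1 rat left out, ATP5F1D, ATP5PD and ATP5PO kept it in 8, UQCRH in 7, COX5A in 5, COX17 and ATP5PF in 4, COX7A2L2 in 3 and ATP5MF in 2. Of the 7 members on the study's list of differentially expressed genes, 6 had an unadjusted p under 0.05, and of the 39 outside it 14 did, with a median log2 fold change of -0.17. At this threshold 4.83% of all genes and 12.4% of genes averaging 45 or more were lower. With TPM as deposited 1 of the 7 and 8 of the 39 passed, against 1.26% of all genes. The list was drawn up on these same rats. Of the 20 matched members with at least 1 promoter motif, 9 had an unadjusted p under 0.05, and of the 20 without, 6 did. The 6 members not matched to a promoter fall outside this split. Of them CYC1, UQCRB, UQCR11, COX6A1 and ATP5PD also had an unadjusted p under 0.05. A link between motif and diet difference was not tested.

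The subunits of complexes III to V that mitochondrial DNA encodes had values that turned with the setting. Of MT-CYB, MT-CO1, MT-CO2, MT-CO3, MT-ATP6 and MT-ATP8, 0 of 6 had an unadjusted p under 0.05, and their median log2 fold change was -0.06, or between 0.06 and 0.23 for single genes without control rat 1. With the mean effective length as covariate 4 of 6 were higher in HFD-fed rats with an unadjusted p under 0.05 (MT-CYB, MT-CO3, MT-ATP6 and MT-ATP8, median 0.22), against 3.42% of genes. When control rat 1 was left out of the deposited TPM, MT-CYB, MT-CO2, MT-CO3 and MT-ATP8 were, against 4.09% of genes. Their summed rescaled TPM ran from 56030 to 118090 in control rats (to 65048 without control rat 1) and from 57048 to 79664 in HFD-fed rats. Whether they differed from the nuclear members was not tested.

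Among genes that assemble or regulate these complexes, 8 of 38 names were among the named genes, and 3 had an unadjusted p under 0.05, all lower. ESRRA, a nuclear receptor known to activate respiratory genes, was at 66.6 to 84.3 rescaled TPM in control rats and 57.5 to 70.4 in HFD-fed rats, a log2 fold change of -0.33 ± 0.08 (SE, unadjusted p = 0.00183, adjusted p = 0.542, limma). The others were UQCC2, an assembly factor of complex III (-0.28 ± 0.13, or -0.15 without control rat 1), and COA3, one of complex IV (-0.15 ± 0.05), while UQCC3, COA5, CMC1, HIGD1A and HIGD2A did not pass. Of these 8, 0 passed on the deposited TPM, and 1 with median ratios over abundant genes. Of 6 carriers and channels that exchange ADP, ATP and phosphate with the cytosol, SLC25A3, SLC25A5 and VDAC1 had an unadjusted p under 0.05, with values of -0.16 ± 0.07, -0.14 ± 0.06 and -0.20 ± 0.09 (SE), whereas 0 of 6 passed with TPM as deposited or with median ratios over abundant genes. Complex I, the other entry point of electrons, had 21 of 32 named nuclear subunits lower at this threshold, with a median of -0.24. That count was 11 with TPM as deposited (median -0.14) and 14 with the length as covariate or with median ratios over abundant genes. With rescaled TPM, 4.83% of all genes and 12.4% of genes averaging 45 or more were lower at this threshold.

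Markers of cell types stood beside these results as follows. Of the 12 epithelial markers, 0 were lower and 2 higher with an unadjusted p under 0.05, KL (0.27 ± 0.11) and HTR2C (0.20 ± 0.07, SE). The median log2 fold change of the 12 was 0.08, or 0.04 without control rat 1 and 0.18 with TPM as deposited. KL did not pass on the deposited TPM (unadjusted p = 0.069, limma), and without control rat 1 KL had 0.16 and AQP1 was lower (-0.18, unadjusted p = 0.023, limma). Of the 7 named markers of other cell types, 0 passed, with values from -0.20 for HBB (blood) to 0.36 for RGS5 (mural cells, 0.10 without control rat 1). RGS5 ran from 42.8 to 110.3 in control rats (from 106 without control rat 1) and from 101 to 129 in HFD-fed rats, and HBB from 818 to 1608 and from 699 to 1507. The levels of PLVAP (endothelium) ran from 53.8 to 97.5 in control rats and from 51.1 to 67.2 in HFD-fed rats, those of DCN (stroma) from 116 to 231 and from 160.4 to 227, and the summed CD74 and LYZ2 (macrophages) from 433 to 625 and from 458 to 654. RSPH1 (ependyma) ran from 67.4 to 118 and from 66.1 to 78.4. The part of cell composition in the member results was not tested.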

How the data were processed

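RNA of the choroid plexus was sequenced from 10 rats (5 control, 5 HFD), with paired-end reads of about 12 Gb per library. Per the labels and the study's methods, the reads were mapped by the authors against Rnor_6.0 with STAR (2.7.2a in the submitters' processing notes, a later version in the study's methods) and quantified with RSEM 1.3.3. They deposited, for each gene, TPM and FPKM rounded to 2 decimals. The deposited FPKM are a constant multiple of TPM within a rat and gave only the mean effective transcript length. No counts were in these files, so the depth is unknown and no counting interval is given; precision rests on the 5 rats of each diet.

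TPM were divided by each rat's median ratio to the mean over 12037 genes. Genes averaging 1 rescaled TPM or more entered a test on log2(rescaled TPM + 0.1) with limma 3.58.1 (R 4.3.3; lmFit, eBayes with trend, diet alone in the design), with p-values of the 12198 genes adjusted by Benjamini-Hochberg. Fold changes are on that scale, which understates the change of low genes. Single ratios used exact two-sided permutation tests. The steps were tested on simulated data. Permutations ran in scipy 1.17.1 (python 3.11.15), tables in pandas 2.3.3 over numpy 2.4.6, and figures came from matplotlib 3.10.9.

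Members and gene lists were chosen with earlier results of these data known. Levels in every rat were given for members with an unadjusted p under 0.05, for 16 core, carrier, rotor and catalytic members or their partners whatever their p, and for the highest and lowest of each complex. Alternatives covered scaling, pseudocount, filters, variance model, covariates and left-out rats. A planned comparison with genes of short proteins was not run, since no table of protein lengths was used here.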

Additional observations from a re-analysis of the deposited data

Results flagged for a closer look

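In 92 groups of 5 rats (46 members in 2 diets), the gap between the highest or lowest rat and its nearest neighbour was compared with the whole range of the group, and 18 groups passed Dixon's limit of 0.71, where chance gives about 4.6. In 16 of the 18 the rat was control rat 1. Its rescaled TPM was above the other control rats for UQCR11 (1186 against 803 to 886), UQCRH (715 against 566 to 589), COX17 (512 against 318 to 352), COX4I1 (1848 against 1011 to 1122), COX5A (377 against 266 to 278), COX5B (1576 against 847 to 948), COX6A1 (2229 against 1649.8 to 1815) and COX6B1 (215 against 128 to 143). In complex V it was above them for ATP5F1D (682 against 476 to 488), ATP5F1E (3247 against 1476 to 1660.5), ATP5MC1 (1522 against 1044 to 1093), ATP5MC2 (1126 against 669 to 733), ATP5ME (3734 against 1953 to 2272), ATP5MF (2695 against 1853 to 1996) and ATP5PF (467 against 302 to 343). For UQCRC2 it was below them (86.1 against 181 to 215). Its mean effective transcript length was the shortest of the 10 rats (789 bases); the part of that length in these values was not tested.

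The other 2 were UQCRB in control rat 4 (433 against 395 to 402) and COX7C in HFD rat 2 (1114 against 879.8 to 919).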

How the results depend on the processing

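Depth is unknown, so it could not be used to weigh single values. The count of 20 members with an unadjusted p under 0.05, all lower, became 9 on the deposited TPM, and between 11 and 28 with any 1 rat omitted (without HFD rat 1 13, HFD rat 4 13 and HFD rat 5 11). In the other alternatives with all 10 rats it ran from 14 to 28. With the replicate number as a block it was 15, against 5.05% of all genes lower. The deviations of same-numbered rats correlated weakly (-0.04 to 0.12), but different-numbered rats were not compared. Whether the numbers pair rats is therefore not known. A pair of alternatives was chosen after seeing the data: without control rat 1, TPM as deposited gave 24 and the mean effective length as covariate 22. Where no share of all genes is given for a count, it cannot be read as particular to the members. Over 26 alternatives and all 46 members (1194 values, since some filters drop a member), 1030 kept direction and side of the threshold, 86 lost an unadjusted p under 0.05, 34 gained one and 44 reversed. The 44 came from 12 members, of which 0 had an unadjusted p under 0.05 in the main setting; the cause was not tested.

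With TPM as deposited, the median of complex II was 0.0022 on the log2 scale, SDHD 0.0022, SDHAF4 0.0738, UQCRFS1 0.0202, COX7A2L 0.0718, COX8B 0.0418, ATP5F1A 0.052, ATP5IF1 0.0459, ATP5PB 0.0765 and CYCS 0.0469. With median ratios over abundant genes, SDHAF4 was 0.0523, COX7A2L 0.0503, COX8B 0.0202, ATP5F1A 0.0305, ATP5IF1 0.0244, ATP5PB 0.0551 and CYCS 0.0254. With array weights COX8B was 0.0909 and SDHA -0.0735, and on deposited TPM besides COX8B was 0.0639, SDHA -0.0379, COX6B1 0.0167 and SDHAF4 0.0403. With the length covariate COX8B was 0.131, COX6B1 0.0252 and SDHA -0.0488. Without control rat 1 on deposited TPM COX8B was 0.113, COX6B1 0.0303, SDHA -0.0659 and UQCRC2 -0.008, and with the covariate instead 0.1388, 0.0365, -0.0661 and -0.0145.

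With 1 rat left out COX8B ran from -0.2642 to 0.1021, SDHA from -0.0768 to 0.0842, COX6B1 from -0.1731 to 0.0194 and UQCRC2 from -0.0189 to 0.3109, each reversing without control rat 1. COX8B also reversed with control rat 3 (0.0398), HFD rat 1 (0.013) or HFD rat 5 (0.0039) omitted. ATP5PB ran from -0.1105 to 0.0183, with a reversal for each of control rat 2, control rat 4 (0.015) and HFD rat 5 (0.0147), and SDHAF4 from -0.1052 to 0.0724, reversing without HFD rat 3. The ATP5MC1 to ATP5MC2 difference (-0.13) was -0.1715 to -0.112, passing the exact permutation test without control rat 1 (-0.1698) or HFD rat 5 (-0.1715), and the ATP5MC3 to ATP5MC2 difference (0.04) ran from -0.1053 without control rat 1 to 0.0857.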
